A study of Mus musculus with 45 samples.

Results

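The 10 genes described here belong to the extracellular matrix or to the cells that line the brain and the eye, and their RNA was measured in 3 neural tissues of the mouse. They are Fmod, Ogn, Dcn, Lum, Col1a1, Col1a2, Igf2, Slc6a13, Aldh1a2 and Serping1, and they make 10 of the 36172 genes listed in each table. They were chosen by name as markers of meningeal cells and fibroblasts, with earlier results of these data known. RNA was sequenced from the cortex, hippocampus and retina of 15 mice aged 3 months that had received tamoxifen, an oestrogen receptor modulator used to activate inducible Cre recombinases, or the sunflower oil in which it was given. Each tissue was split by sex and treatment, and the question was how tamoxifen alters RNA levels. The labels used here name no strain, genotype, transgene or dose, and no group is described as carrying Cre.

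The cortex libraries came from 4 tamoxifen females, 3 vehicle females, 3 tamoxifen males and 4 vehicle males. In the hippocampus the same groups held 4, 3, 4 and 3 animals, and in the retina 4, 3, 4 and 4. Replicates were separate animals, named below by the number in their titles: 951 to 954 were tamoxifen females, 955, 957 and 958 vehicle females, 959 to 962 tamoxifen males and 963 to 966 vehicle males. The females all had lower numbers than the males, so sex and anything that followed the numbering cannot be told apart. Within each sex the tamoxifen animals had lower numbers than the vehicle animals, so the same limit holds for treatment within a sex.

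Small leucine-rich proteoglycans bind collagen fibrils and set their width and spacing, and fibroblasts of the meninges, of vessel walls and of the eye's outer coats make them together with type I collagen. The meninges, which include the arachnoid and pia, wrap the brain and follow its larger vessels inward. Their cells secrete growth factors and retinoic acid and carry transporters that clear solutes at the brain's border. The neural retina has no meninges, but the optic nerve head, the choroid and the sclera around it contain fibroblasts. RNA from bulk tissue was measured, so fewer cells of a type and less RNA per cell cannot be told apart.

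All 10 members were detected well enough to be tested in every tissue. Library totals ran from 10259763 to 22375210 counts in the cortex, from 31154253 to 44153288 in the hippocampus and from 9143790 to 18253871 in the retina. The cortex library of animal 962 held 4551 counts, none of them in a member, and was not used. Rod photoreceptor genes summed to 54540 to 64570 counts for each 1000000 of the library (CPM) in the retina, at most 100.5 in the cortex and at most 9.71 in the hippocampus, as the tissue labels say. Some libraries held RNA of neighbouring tissue. Ttr, the defining gene of choroid plexus, stood above 5 times the tissue median in the cortex of 958, 960 and 965 and in the hippocampus of 951, 958 and 962. Genes of the retinal pigment epithelium and choroid melanocytes summed to between 78.0 CPM (954) and 1304 CPM (966) in the retina. Cryaa, a crystallin gene on the lens list, was above 5 times its retina median (0.493 CPM of the library total) in 951, 959, 960 and 962. Its levels there were 39.4, 155.7, 2.74 and 14.2 CPM of the library total, and all of these were tamoxifen animals.

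The meningeal and fibroblast name was set beside 33 other markers of these cells, such as Ptgds and Slc22a6. These were also chosen with earlier results of these data known, so the comparison describes the list and does not test the name. Their levels were summed, which gives the most abundant markers the most weight. In the hippocampus every member followed their summed level from library to library, with Pearson correlations of 0.71 (Dcn) to 0.97 (Ogn) over 14 libraries. In the retina 7 members did so, from 0.83 (Ogn) to 0.90 (Aldh1a2) over 15 libraries, but Fmod (0.22), Slc6a13 (0.22) and Igf2 (-0.11) did not. In the cortex the correlations were looser, from -0.44 (Lum) and 0.27 (Dcn) to 0.71 (Serping1). The name is therefore used for the list of genes. Lum and Dcn in the cortex and Fmod, Slc6a13 and Igf2 in the retina did not vary closely with the other markers, and Igf2 in the hippocampus, at 0.81 with them, had 0.85 with choroid plexus genes.

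Positions are on GRCm38, as the tables give them. There are 2 pairs on shared chromosomes: Dcn (chr10:97479500-97518162) and Lum (chr10:97565501-97572703) are neighbours with 47338 bases between them, and Col1a2 (chr6:4505697-4541543) and Slc6a13 (chr6:121300296-121337718) are far apart. Fmod is at chr1:134037515-134048277, Ogn at chr13:49608071-49624500, Col1a1 at chr11:94936270-94951856, Aldh1a2 at chr9:71215789-71296243, all on the plus strand. Igf2 at chr7:142650768-142661035 and Serping1 at chr2:84765360-84775429 are on the minus strand. Each value covers the whole gene, over all its exons.

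Promoter sequences are shown for the members with a RefSeq entry, so that the start regions of genes measured side by side can be compared. RefSeq (GRCm38.p6) gave windows of 250 bases before to 50 bases after an annotated start for 6 of the 10 members, 11 windows in all. Capitals mark matches on either strand to the letters searched. These were TATAAA for the TATA element, CCAAT for the factor NF-Y and GGGCGG for Sp1. For other factor families they were GTAAACA for forkhead proteins, GGAATG for TEAD proteins, CACCTG for E-box binding proteins and AGGTCA for nuclear receptors. A match on the other strand reads as the reverse complement. No match of 1 motif overlapped a match of another. Dcn, Lum, Col1a1 and Serping1 had no entry. The windows are Fmod at chr1:134037004-134037303, Ogn at chr13:49607765-49608064, Col1a2 at chr6:4505368-4505667, Aldh1a2 at chr9:71215539-71215838 and Slc6a13 at chr6:121300038-121300337, on the plus strand, and Igf2 at chr7:142657447-142657746 on the minus strand.
Fmod: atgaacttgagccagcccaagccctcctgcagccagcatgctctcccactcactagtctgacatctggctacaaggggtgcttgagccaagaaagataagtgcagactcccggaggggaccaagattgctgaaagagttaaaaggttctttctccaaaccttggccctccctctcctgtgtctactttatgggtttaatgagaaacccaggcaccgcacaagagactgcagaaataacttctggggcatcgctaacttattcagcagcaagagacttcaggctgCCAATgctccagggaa
Ogn: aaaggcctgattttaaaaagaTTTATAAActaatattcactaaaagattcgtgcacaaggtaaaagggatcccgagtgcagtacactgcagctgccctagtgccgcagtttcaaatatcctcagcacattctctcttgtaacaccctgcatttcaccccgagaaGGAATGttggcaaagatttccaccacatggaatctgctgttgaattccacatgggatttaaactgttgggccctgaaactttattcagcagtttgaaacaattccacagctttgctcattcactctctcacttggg
Col1a2: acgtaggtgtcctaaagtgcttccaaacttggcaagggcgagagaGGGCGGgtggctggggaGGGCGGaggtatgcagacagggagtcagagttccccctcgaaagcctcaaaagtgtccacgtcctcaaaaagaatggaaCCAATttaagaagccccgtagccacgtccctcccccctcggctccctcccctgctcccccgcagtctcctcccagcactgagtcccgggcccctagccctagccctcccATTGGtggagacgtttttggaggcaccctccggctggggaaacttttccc
Aldh1a2: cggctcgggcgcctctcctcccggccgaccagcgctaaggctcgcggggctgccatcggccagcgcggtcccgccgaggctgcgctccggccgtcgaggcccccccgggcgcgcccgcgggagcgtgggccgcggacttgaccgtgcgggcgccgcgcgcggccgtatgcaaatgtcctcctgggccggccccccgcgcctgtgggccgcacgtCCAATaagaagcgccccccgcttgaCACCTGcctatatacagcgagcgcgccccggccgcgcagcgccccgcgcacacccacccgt
Slc6a13: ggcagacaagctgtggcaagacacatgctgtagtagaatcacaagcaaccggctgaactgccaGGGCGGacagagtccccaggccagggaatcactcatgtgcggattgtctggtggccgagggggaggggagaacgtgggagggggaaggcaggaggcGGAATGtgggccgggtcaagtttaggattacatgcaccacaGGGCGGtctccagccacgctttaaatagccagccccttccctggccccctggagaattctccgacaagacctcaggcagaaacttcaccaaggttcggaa
Igf2: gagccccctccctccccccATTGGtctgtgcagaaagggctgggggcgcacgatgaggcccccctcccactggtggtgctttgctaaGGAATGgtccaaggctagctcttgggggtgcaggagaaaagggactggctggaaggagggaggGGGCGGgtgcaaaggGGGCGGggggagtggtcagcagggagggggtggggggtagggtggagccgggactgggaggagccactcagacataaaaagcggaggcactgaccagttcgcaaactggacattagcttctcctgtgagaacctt

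The windows had no motif in common. CCAAT, present in 37.4% of the 32851 mouse promoters of this length, was found in 4 of the 6 windows printed, at position 34 in Fmod, -109 and 0 in Col1a2, -36 in Aldh1a2 and -231 in Igf2 (first base of the match, with the start as position 0). GGGCGG, present in 35.7%, was found at -205 and -188 in Col1a2, -187 and -50 in Slc6a13 and -100 and -85 in Igf2. GGAATG, present in 14.7%, was found at -86 in Ogn, -91 in Slc6a13 and -163 in Igf2. Ogn held TATAAA on both strands in overlapping bases, at -229 and -227 (13.6% of promoters hold it), and Aldh1a2 held CACCTG at -11 (20.2%). The core AGGTCA, held by 16.3%, was in 1 of the other windows of Slc6a13 and 1 of Igf2, and GTAAACA, held by 3.65%, was in none of the 11. Slc6a13 and Igf2 had further windows that are not printed, and the matches depend on the window. In those of Slc6a13 CCAAT was found at -115 and 41. In those of Igf2 GGAATG was found at -218, -112 and -180, and GGGCGG at -17. A match describes letters and not a bound site.

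Levels per kilobase of transcript placed Igf2 and Dcn highest in both brain tissues, and Slc6a13 and Fmod highest in the retina. In the cortex the median was 19.6 CPM per kilobase for Igf2, the fetal growth factor, and 14.9 for Dcn, decorin, which binds collagen fibrils and growth factors, with Igf2 above Dcn in 11 of 14 libraries but within the larger SD. Next came Fmod, Slc6a13, Ogn, Aldh1a2, Serping1 and Col1a2 between 8.85 and 4.35, with neighbours in this order closer than the larger of their SDs. Col1a1 (1.68) and Lum (1.38) were lowest. In the hippocampus Dcn led at 36.8, Igf2 followed at 16.04, and the other 8 members lay between 4.75 (Serping1) and 1.38 (Col1a1). In the retina Slc6a13 had 12.6 and was above Fmod (9.57) in 15 of 15 libraries. Serping1 (8.82), Igf2 (8.59) and Dcn (8.05) came next and could not be ordered beyond their spread. Lum (0.758), Aldh1a2 (0.360) and Col1a1 (0.289) were lowest there.

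**Figure D1:**
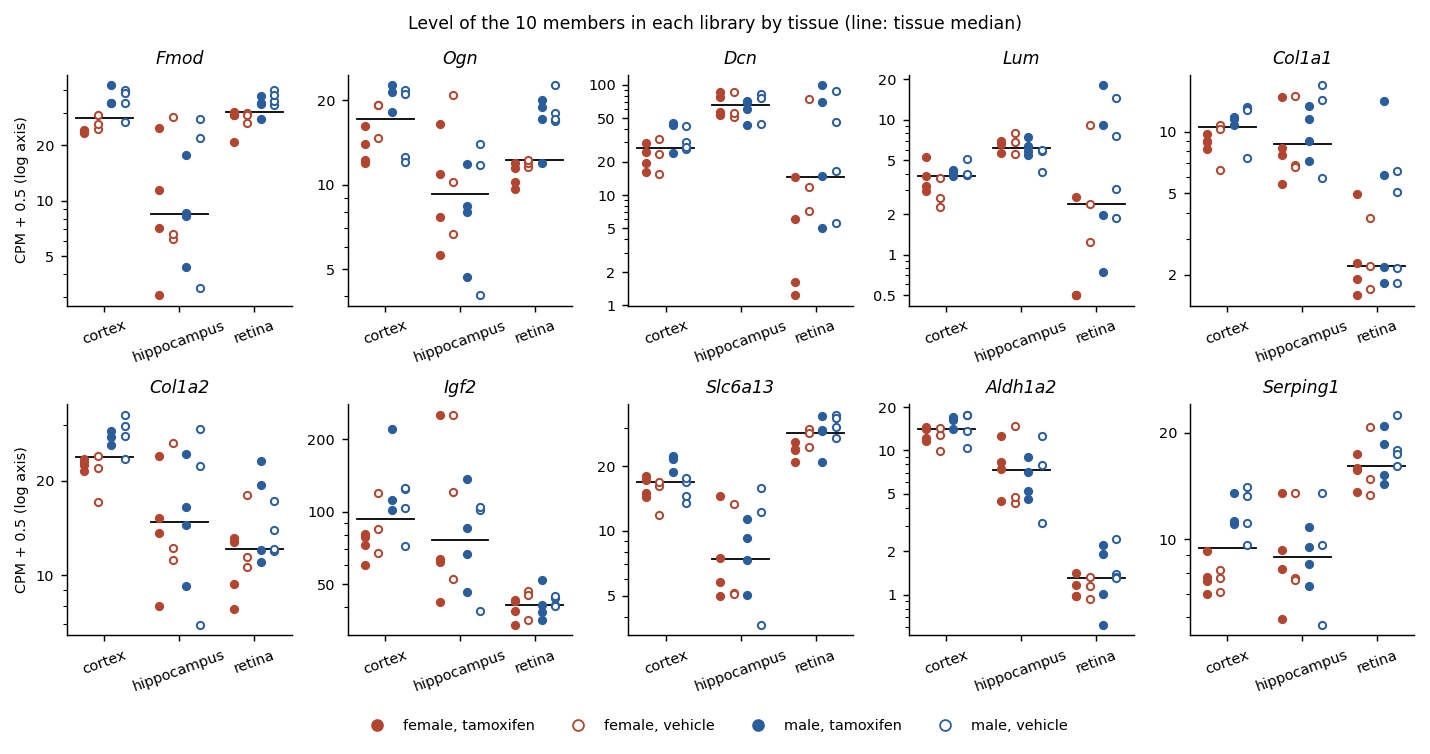
Level of each member in each library, in CPM plus 0.5 on a log axis, by tissue; each point is 1 library, red for females and blue for males, filled for tamoxifen and open for vehicle, and a line marks the tissue median. Dcn, Lum and Col1a1 spread widely in the retina (Dcn from 0.737 to 99.2 CPM), Fmod and Igf2 in the hippocampus, and filled and open points overlap in every panel.

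Tissue levels were compared in 1 fit over all 43 libraries in which each tissue enters 2 of the 3 comparisons. Between cortex and hippocampus 5 of 10 members were higher in the cortex and 2 were lower, where 34.8% of the 15900 genes tested were higher and 34.8% lower. Against the retina the cortex was higher for 4 members and lower for 2 (43.9% and 44.4% of all genes). The hippocampus was higher than the retina for 5 and lower for 4 (43.4% and 46% of all genes). In either direction 7, 6 and 9 of the 10 members were called, against 69.7%, 88.2% and 89.4% of all genes, shares that are close to or below this background. Adjusted p-values here and below are from edgeR's quasi-likelihood test with Benjamini-Hochberg adjustment over all genes tested, and ± marks the SE of a log2 fold change.

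The chains of type I collagen differed in tissue pattern. Col1a1, which encodes the alpha1 chain, had medians of 9.98, 8.16 and 1.71 CPM in cortex, hippocampus and retina. Its level in the retina was lower than in the cortex by 1.71 ± 0.27 on the log2 scale (adjusted p = 2.14e-07) and lower than in the hippocampus by 1.72 ± 0.26 (adjusted p = 1.14e-07), while the brain tissues differed by -0.00 ± 0.23 (95% interval -0.47 to 0.47). Col1a2, the alpha2 chain, had medians of 23.2, 14.3 and 11.6 CPM. It was higher in the cortex than in the hippocampus (0.57 ± 0.17, adjusted p = 0.00318) and than in the retina (0.91 ± 0.18, adjusted p = 1.1e-05), and its difference between hippocampus and retina missed the threshold (0.34 ± 0.17, adjusted p = 0.0633). That difference passed without animal 953, 958, 960 or 966 (edgeR adjusted p from 0.00335 to 0.0261) and with no filter on low counts (0.0361). It also passed without the libraries rich in Ttr or in pigment cell genes (0.59 ± 0.21, adjusted p = 0.00932). It did not pass in the other 11 fits that left out an animal, with DESeq2 or with RLE scaling. With the animal as a replicate block it did not pass either (edgeR adjusted p = 0.147). Col1a2 exceeded Col1a1 per kilobase in each tissue, with medians of 4.35 against 1.68, 2.68 against 1.38 and 2.17 against 0.289.

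Among the proteoglycans, Fmod and Ogn were lowest in the hippocampus, whereas Dcn and Lum were highest there. Fmod, fibromodulin, which guides collagen cross-linking, had medians of 27.6, 7.93 and 29.9 CPM in the same order. It was lower in the hippocampus than in the cortex by 1.25 ± 0.24 on the log2 scale (adjusted p = 1.95e-05), and cortex and retina differed by -0.05 ± 0.24 (interval -0.54 to 0.43). Ogn, osteoglycin, had medians of 16.7, 8.79 and 11.7 CPM, with the hippocampus below the cortex by 0.79 ± 0.17 (adjusted p = 7.31e-05) and below the retina by 0.51 ± 0.17 (adjusted p = 0.00528). Dcn had medians of 26.3, 64.7 and 14.2 CPM. It was higher in the hippocampus than in the cortex by 1.22 ± 0.33 (adjusted p = 0.00116) and than in the retina by 1.51 ± 0.34 (adjusted p = 8.25e-05). Lum, lumican, a corneal and dermal fibril organiser, was scarcer at 3.36, 5.71 and 1.86 CPM, with the hippocampus above the cortex by 0.85 ± 0.35 (adjusted p = 0.0297) and above the retina by 0.98 ± 0.37 (adjusted p = 0.0144). With DESeq2 both differences of Lum missed the threshold (adjusted p = 0.106 and 0.0633), and the one from the cortex also did so without animal 955 (edgeR adjusted p = 0.0645).

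Cortex and retina did not differ past the threshold for Dcn (0.29 ± 0.35) or Lum (0.13 ± 0.40) over all libraries. The retina medians of these genes come from libraries that differ by up to 134.7-fold in Dcn, as described further on. Without the cortex and hippocampus libraries rich in Ttr and the 5 retina libraries rich in pigment cell genes, a setting chosen after the data were seen, the cortex was above the retina for Dcn by 1.68 ± 0.29 (edgeR adjusted p = 3.93e-06) and for Lum by 1.64 ± 0.35 (adjusted p = 9.41e-05).

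Of the members that are not matrix proteins, Igf2 and Aldh1a2 had their lowest medians in the retina, and Slc6a13 and Serping1 their highest. Igf2 had medians of 92.7, 75.8 and 40.6 CPM in cortex, hippocampus and retina, and it was higher than in the retina by 1.29 ± 0.22 in the cortex (adjusted p = 1.02e-06) and by 1.29 ± 0.21 in the hippocampus (adjusted p = 7.59e-07). Aldh1a2, which makes retinoic acid from retinal, had medians of 13.5, 6.77 and 0.816 CPM. Its difference between cortex and retina, 4.11 ± 0.26 on the log2 scale (adjusted p = 5.78e-18), was the largest of any member, and the retina libraries held only 2 to 24 counts of it. Slc6a13, the GABA and taurine transporter GAT2, ran the other way, with 16.4, 6.92 and 28.1 CPM, the retina above the cortex by 0.74 ± 0.16 (adjusted p = 8.42e-05) and above the hippocampus by 1.73 ± 0.17 (adjusted p = 1.29e-12). Serping1, the C1 inhibitor that blocks complement and contact proteases, had 8.94, 8.39 and 15.6 CPM and was higher in the retina than in the cortex by 0.84 ± 0.12 (adjusted p = 4.28e-08).

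Within the hippocampus most members rose and fell together from animal to animal. The Fmod level, animal by animal from 951 to 954, was 24.3, 10.9, 2.57 and 6.56 CPM in the tamoxifen females. It was 28.1, 5.68 and 6.11 CPM in the vehicle females 955, 957 and 958. It was 8.11, 3.84, 17.2 and 7.75 CPM in the tamoxifen males 959 to 962, and 27.6, 21.5 and 2.84 CPM in the vehicle males 963, 964 and 966. Animals 951, 955, 961, 963 and 964 were high and 953, 960 and 966 low, so the high libraries came from all 4 groups and the groups overlapped. The highest library held 10.9 times the lowest.

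Ogn followed the same animals, with 15.9, 10.4, 5.10 and 7.21 CPM in the tamoxifen females and 20.4, 6.18 and 9.70 CPM in the vehicle females. Its levels were 7.88, 4.19, 11.4 and 7.48 CPM in the tamoxifen males and 13.4, 11.3 and 3.55 CPM in the vehicle males. Animal 955 was the highest for Fmod, Ogn, Dcn, Lum, Aldh1a2 and Serping1, and 966 the lowest for Ogn, Lum, Col1a2, Igf2, Slc6a13, Aldh1a2 and Serping1. The highest library exceeded the lowest by 5.74 times for Ogn, 5.39 for Aldh1a2, 4.87 for Slc6a13, 4.44 for Col1a2, 3.23 for Col1a1 and 2.499 for Serping1. Dcn varied less, from 42.5 (961) to 86.3 CPM (955), as did Lum, from 3.63 to 7.51 CPM.

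**Figure D2:**
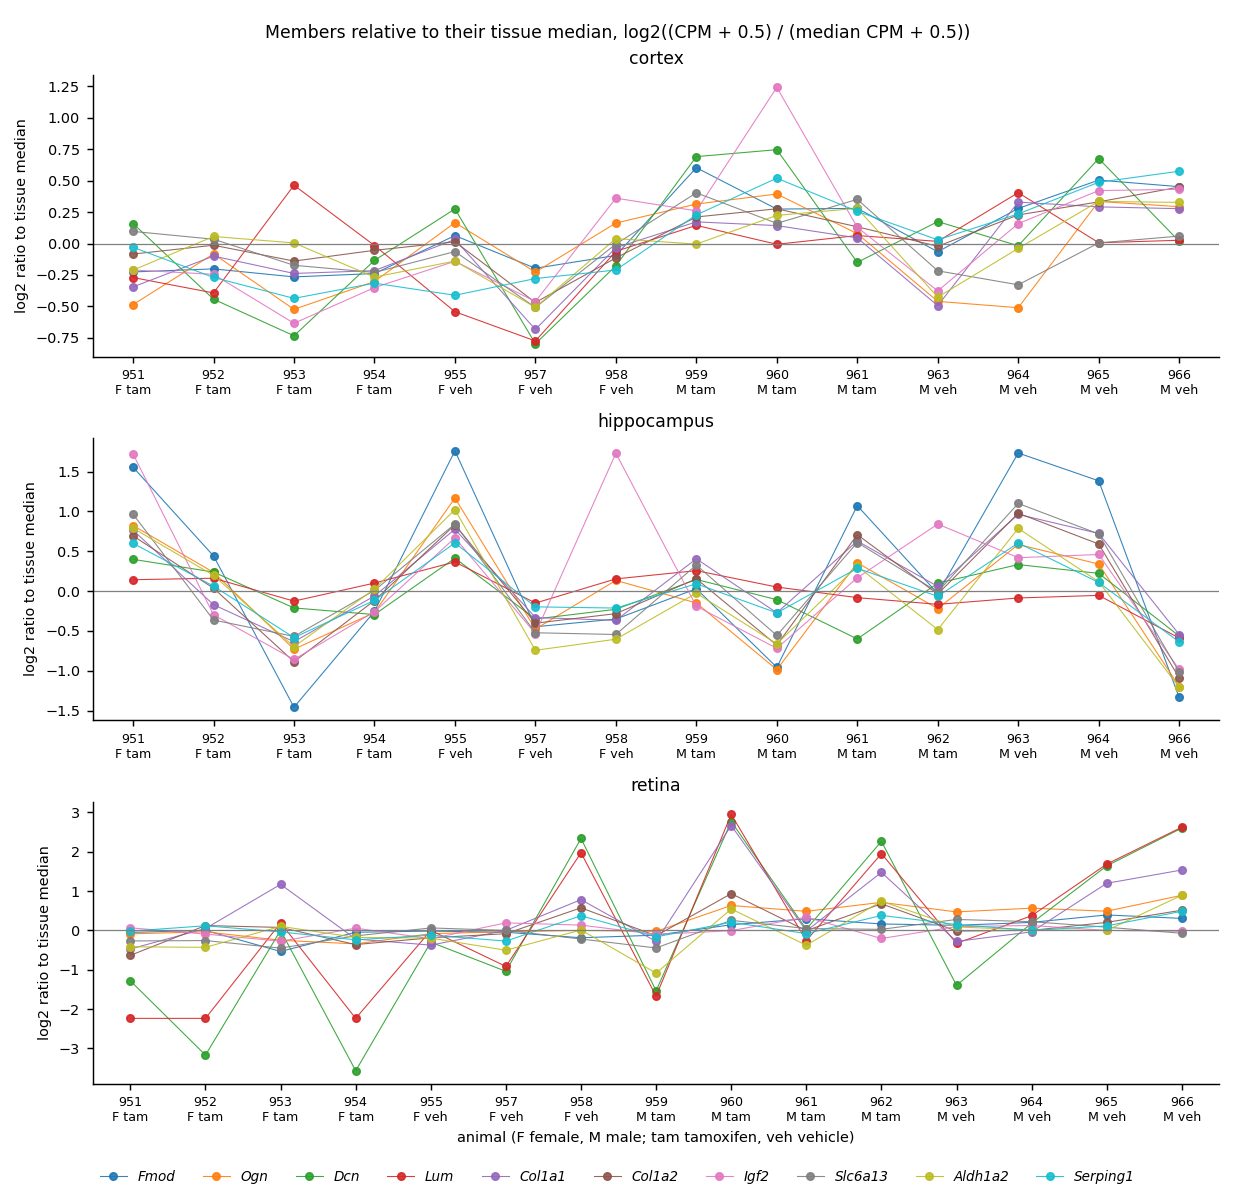
Members by animal in the 3 tissues, as the log2 ratio of each library's CPM plus 0.5 to the tissue median plus 0.5; a line joins the values of each member only to guide the eye, and the animals have no order. In the hippocampus most lines peak in 951, 955, 963 and 964 and dip in 953 and 966; in the retina Dcn, Lum and Col1a1 peak in 960.

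Co-variation was measured as Pearson's r between log2 CPM of members after the mean of each of the 4 groups was removed. Over 14 hippocampus libraries the 45 pairs of members had a median r of 0.76, and 21 pairs were above 0.8. The closest pair was Col1a1 and Slc6a13, a collagen chain and a transporter, with r of 0.99, Spearman's rho of 0.99 and r of 0.99 without the 2 libraries farthest from the median. The loosest was Lum and Igf2 at 0.46. Against the mean of the other 9, Ogn and Fmod reached 0.97 each, Dcn 0.72, Lum 0.75 and Igf2 0.64. Other genes had a median r of -0.00 with the mean of the members, and 0.998% of them exceeded 0.8. Pairs among other genes were not counted, so the numbers of member pairs above 0.8 have no background, here and below. Without animal 966 the median over pairs was 0.64, and without 961, where Dcn was lowest although Fmod was high, it was 0.93.

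Among all other genes of the hippocampus, the mean of the 10 members had its highest r with Ptgds, the prostaglandin D synthase of meninges and cerebrospinal fluid (0.99), the collagen receptor Mrc2 (0.98), the dicarboxylate transporter Slc13a3 (0.97), the organic anion transporter Slc22a6 (0.96) and vitronectin, Vtn (0.96). Thbd, Col6a2, Aebp1, Anpep and Slc6a20b followed at 0.94 to 0.95. Border macrophages, which live in the meninges and around vessels, had a summed marker level of 4.20 (953) to 14.7 CPM (955), whose r with the members was 0.93 to 0.96 for Fmod, Col1a1, Col1a2, Slc6a13, Aldh1a2 and Serping1, 0.90 for Ogn, 0.73 for Lum, 0.70 for Dcn and 0.52 for Igf2. Neuronal markers went the other way, with r from -0.79 (Ogn) to -0.50 (Dcn). These values share libraries and depth, and what sets them was not tested.

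Igf2 stood apart from the other members in the hippocampus. Its levels were 251.1, 61.6, 41.5 and 63.2 CPM in the tamoxifen females, 120.8, 52.2 and 253 CPM in the vehicle females, 66.4, 45.9, 85.2 and 136 CPM in the tamoxifen males, and 101.5, 104 and 38.1 CPM in the vehicle males. Animals 951, 958 and 962, the hippocampus libraries rich in Ttr, were the highest for Igf2, and 958 and 962 were not among the high libraries for Fmod. The summed level of 17 choroid plexus genes ran from 314.3 to 5080 CPM, and its r was 0.85 with Igf2 and 0.05 (Aldh1a2) to 0.29 (Dcn) with the others. The single genes closest to Igf2, named after their values were seen, were Pcolce (0.98) and Perp, Bmp6, Angptl2 and Slc13a4 (0.97 each). Bmp6, Angptl2 and Slc13a4 are among the other meningeal and fibroblast markers. Choroid plexus is a textbook site of Igf2 expression in adult brain, but which cells the Igf2 RNA came from was not tested. Without the 3 libraries rich in Ttr the median r over all pairs of members was 0.96, a setting chosen after the data were seen.

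In the cortex the members were steadier. Fmod ran from 22.9 (953) to 42.2 CPM (959), and Igf2 ran from 59.5 (953) to 220.1 CPM (960). The median r over the 45 pairs was 0.50, and only Col1a1 with Col1a2 exceeded 0.8 (r = 0.90 over 14 libraries, 0.68 without animals 957 and 963). Of other genes 0.259% exceeded 0.8 with the mean of the members. Lum was unrelated to the rest, with r of -0.01 against the mean of the other 9. Igf2 again followed choroid plexus genes (0.80). Border macrophage genes had r of 0.86 with Col1a2 and 0.83 with Col1a1, and red blood cell genes 0.86 with Aldh1a2. The genes closest to the mean of the members were Thbd (0.92), Oma1 (0.92), the fibrillar collagen Col3a1 (0.91), Bgn, the proteoglycan biglycan (0.90), and Tmem64 (0.90), followed by Cdkn2aip, Nek3, Mms19, Edem3 and Zfp563 down to 0.86.

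Dcn in the cortex varied apart from most other members. Its levels were 29.4, 19.2, 15.6 and 23.9 CPM in the tamoxifen females and 31.9, 14.9 and 23.2 CPM in the vehicle females. They were 42.7, 44.4 and 23.6 CPM in the tamoxifen males 959 to 961 and 29.7, 25.9, 42.3 and 26.6 CPM in the vehicle males. Animals 959, 960 and 965 were the highest, and the groups overlapped. Its r was 0.45 with the mean of the other 9 members, against 0.95 with Reln, which encodes the reelin that interneurons secrete, and 0.94 with the semaphorin receptor Plxnc1, genes named after their values were seen. The neuronal marker list had r of -0.61 with it, oligodendrocyte markers -0.80 and the other meningeal and fibroblast markers 0.27.

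**Figure D3:**
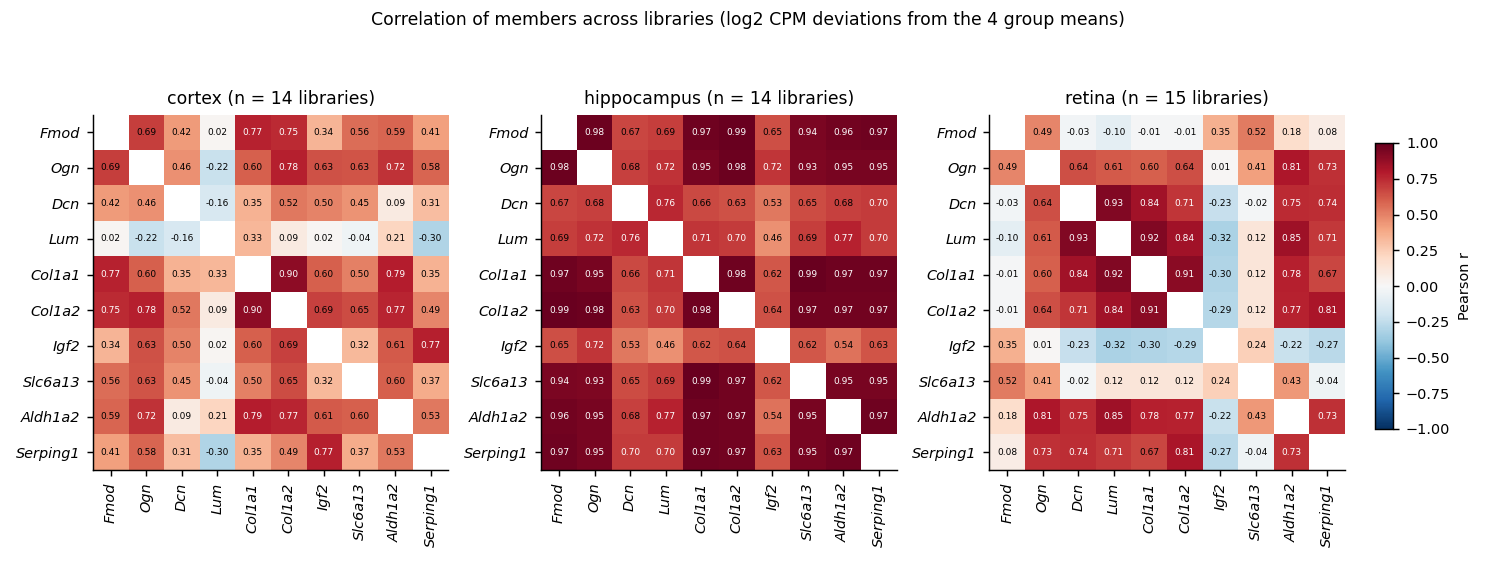
Pearson's r between members within each tissue, after the mean of each group of sex and treatment was removed, over 14 cortex, 14 hippocampus and 15 retina libraries; the colour runs from negative to positive r. The hippocampus is the most uniformly positive (median 0.76), and in the retina Fmod, Igf2 and Slc6a13 stand outside the block formed by Dcn, Lum, Col1a1 and Col1a2.

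In the retina the members fell into a set that varied widely and a set that did not. Dcn measured 5.53, 1.13, 14.2 and 0.737 CPM in the tamoxifen females 951 to 954, and 11.4, 6.63 and 73.5 CPM in the vehicle females. It measured 4.56, 99.2, 14.5 and 69.9 CPM in the tamoxifen males and 5.07, 16.1, 45.2 and 88.4 CPM in the vehicle males. Animals 958, 960, 962, 965 and 966 were high and the other 10 at or below 16.1 CPM, and all groups but the tamoxifen females held at least 1 high library. The highest was 134.7 times the lowest.

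Lum followed Dcn in the retina. It had 0 counts in tamoxifen females 951, 952 and 954, which allows up to 0.221 CPM, and 2.19 CPM in 953. It reached 1.85, 0.749 and 8.75 CPM in the vehicle females, 0.24, 17.7, 1.47 and 8.60 CPM in the tamoxifen males and 1.37, 2.55, 7.07 and 14.0 CPM in the vehicle males. The same 5 animals were the highest, and 960 was at least 80.0-fold above each library at 0. The r of Dcn with Lum was 0.93 (rho 0.95, and 0.90 without 2 libraries), the highest of any pair in this tissue. Dcn and Lum are neighbours on chromosome 10, and their r was -0.16 in the cortex and 0.76 in the hippocampus. In the retina Col1a1, on another chromosome, had r of 0.92 with Lum and 0.91 with Col1a2. It ran from 1.09 (951) to 13.5 CPM (960). The median over all pairs was 0.49, with 8 of 45 above 0.8. Of other genes 1.25% exceeded 0.8 with the mean of the members.

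These same 5 retina libraries were the richest in pigment cell genes. The summed level of the 12 pigment genes had r of 0.93 with Lum, 0.89 with Dcn, 0.88 with Col1a2, 0.87 with Col1a1 and Aldh1a2, 0.85 with Serping1 and 0.75 with Ogn. It had 0.19 with Slc6a13, 0.09 with Fmod and -0.12 with Igf2. Among the defining pigment markers Pmel ranged from 4.72 to 249.6 CPM, Tyrp1 from 5.01 to 274.9, Dct from 10.1 to 582.4 and Rpe65 from 4.07 to 54.7 over the libraries. Without these 5 libraries the median over pairs was 0.21. It was also 0.21 without animal 959 alone, whose Aldh1a2 level rested on 2 counts. The retina library of 959 also held the most Cryaa, 155.7 CPM of the library total. What sets this joint variation was not tested.

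Fmod, Slc6a13 and Igf2 were steady in the retina, and Fmod and Igf2 followed other gene lists. Fmod ran from 20.5 (953) to 39.4 CPM (965) and had r of 0.89 with the summed level of the other small leucine-rich proteoglycans, most of which came from Prelp (58.5 CPM at the median) and the vitreous proteoglycan Optc (51.5 CPM). Igf2 ran from 33.4 (953) to 51.3 CPM (961), with r of 0.91 with neuronal markers and 0.91 with markers of astrocytes and Müller glia, the retina's radial glia. Slc6a13 ran from 20.5 (953) to 34.2 CPM (963) and had r of at most 0.64 with any list compared. The genes most like the mean of the 10 members were Ptgds (0.95), Hhip (0.95), Rcn3 (0.94), Ifitm2 (0.94) and Nbl1 (0.93), followed by Cdh19, Procr, Ephx1, Cd151 and Acadl down to 0.92.

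**Figure D4:**
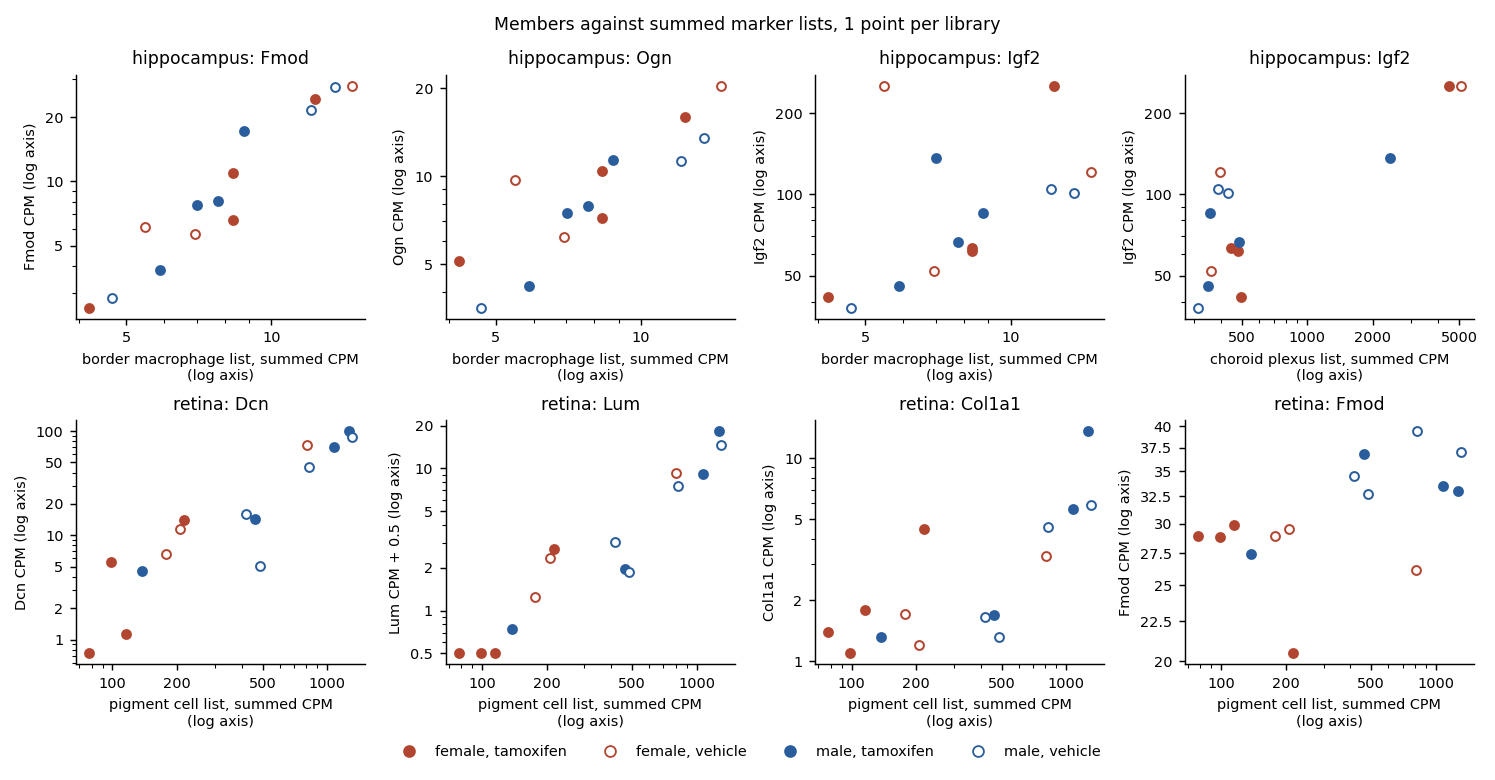
Members against the summed CPM of marker genes of other cells, both on log axes, with 1 point per library. In the hippocampus Fmod and Ogn follow border macrophage genes. Igf2 rises with choroid plexus genes, and its r with the other meningeal and fibroblast markers (not plotted) was close to that. In the retina Dcn, Lum (plotted plus 0.5) and Col1a1 rise with the pigment cell genes and Fmod does not (r = 0.09).

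The spread between animals was wider for the members than for most genes. The biological coefficient of variation, edgeR's estimate of spread beyond counting error, had a median over the members of 0.416 in the hippocampus against 0.102 over all genes tested. It reached 0.663 for Fmod and 0.524 for Igf2, and Lum was lowest at 0.161. In the cortex the medians were 0.152 and 0.085. In the retina they were 0.194 and 0.1004, with Lum at 1.18, Dcn at 0.900 and Col1a1 at 0.611 but Igf2 at 0.103 and Fmod at 0.106. The median SE of the members' log2 tamoxifen differences was 0.33 in the hippocampus, 0.15 in the retina and 0.13 in the cortex, against 0.07 to 0.08 for all genes.

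No member passed the test for a change with tamoxifen in any tissue. With the sexes averaged, edgeR called 0 of 10 members in the cortex, where it called 0.606% of all genes, 0 in the hippocampus (0.0652%) and 0 in the retina (0.0474%). It called 0 in females alone (0.375%, 0.013% and 0.0406% of all genes in cortex, hippocampus and retina) and 0 in males alone (0.0272%, 0% and 0%). At an unadjusted p under 0.05 there was 1 member in the cortex, Slc6a13, both with the sexes averaged and in males, and there were 2 in the retina of females, Dcn and Lum. The share of all genes at this cutoff is not given, here or below, so such counts have no background. DESeq2 also called 0 in each of these comparisons. With the sexes pooled, the tamoxifen and vehicle libraries overlapped for every member in every tissue. How often they overlap over all genes was not counted, so this is not particular to the members.

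Slc6a13 in the cortex came closest. It measured 17.6, 16.8, 14.5 and 13.9 CPM in the tamoxifen females, 15.7, 11.4 and 16.4 CPM in the vehicle females, 21.9, 18.4 and 21.1 CPM in the tamoxifen males and 14.0, 12.96, 16.5 and 17.1 CPM in the vehicle males. The 3 tamoxifen males lay above the 4 vehicle males, and in females the groups overlapped. The log2 difference, tamoxifen minus vehicle, was 0.42 ± 0.13 in males (edgeR adjusted p = 0.445) and 0.26 ± 0.09 with the sexes averaged (95% interval 0.07 to 0.46, adjusted p = 0.335), and 5 of 7 tamoxifen libraries were above the vehicle median. In the retina it was -0.19 ± 0.09 (adjusted p = 0.726) and in the hippocampus -0.15 ± 0.35.

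The other 9 members gave small differences in the cortex. With the sexes averaged they ran from -0.05 ± 0.13 (Ogn) to 0.21 ± 0.18 (Lum), with 95% intervals of -0.22 to 0.13 for Fmod, -0.14 to 0.19 for Col1a2 and -0.20 to 0.24 for Serping1. Igf2 was -0.32 ± 0.23 in females and 0.45 ± 0.22 in males, and Ogn -0.39 ± 0.19 and 0.30 ± 0.18. The difference between the sexes in the tamoxifen effect was 0.77 ± 0.32 for Igf2 (edgeR adjusted p = 0.855) and 0.69 ± 0.26 for Ogn (adjusted p = 0.796), the 2 members at an unadjusted p under 0.05. For this difference edgeR called 0 members and 0% of all genes in each tissue, and DESeq2 also called 0.

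In the hippocampus the intervals were wide. Fmod had the largest difference, -0.57 ± 0.53 with an interval of -1.69 to 0.55 (edgeR adjusted p = 0.842), and Ogn had -0.30 ± 0.33. Lum had the smallest SE (0.10 ± 0.12). Of the 10 members, 9 were negative, with a median of -0.16 against 0.00 over all genes, and since these members share their high and low libraries they are not separate observations. Choroid plexus genes were positive for 17 of 17 in the same comparison (median 0.67, 0 called), and with their score as a covariate 0 members were called.

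In the retina Lum and Dcn had the largest differences and the largest errors. Lum was -1.48 ± 0.85 with the sexes averaged (edgeR adjusted p = 0.794) and -3.12 ± 1.39 in females (adjusted p = 0.765). Dcn was -1.18 ± 0.71 (adjusted p = 0.813) and -2.64 ± 1.12 (adjusted p = 0.754). In females the 3 vehicle animals measured 11.4, 6.63 and 73.5 CPM of Dcn against 5.53, 1.13, 14.2 and 0.737 CPM with tamoxifen, so the groups overlapped through 953. Pigment cell genes in females summed to 177.4 to 805.0 CPM with vehicle and were lowest in tamoxifen animal 954 at 78.0 CPM. As CPM of the unscaled library totals, they summed to 102.9, 120.4, 228.4 and 80.2 in tamoxifen females 951 to 954. On that scale vehicle females 955, 957 and 958 had 216.2, 181.4 and 834.0, so these groups also overlapped through 953. With the pigment score as a covariate the differences in females were -0.46 ± 0.57 for Dcn and -0.79 ± 0.59 for Lum, and without the 5 pigment-rich libraries they were -0.83 ± 0.85 and -1.52 ± 1.29 (the lowest edgeR adjusted p of the 4 was 0.924). In males the differences were 0.29 ± 0.87 for Dcn and 0.16 ± 0.95 for Lum. What sets the differences of Dcn and Lum was not tested. The other 8 members ran from -0.19 ± 0.09 (Slc6a13) to 0.36 ± 0.50 (Col1a1), and 9 of 10 were negative (median -0.12, all genes 0.00). Of all genes 51.3% were positive, and several members share their high libraries, so they are not separate observations. Whether the effect differed between tissues was tested in the joint fit, which called 0 members and 0.0126% of all genes, with none of the 10 at an unadjusted p under 0.05 and the lowest edgeR adjusted p at 0.971 for Lum.

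**Figure D5:**
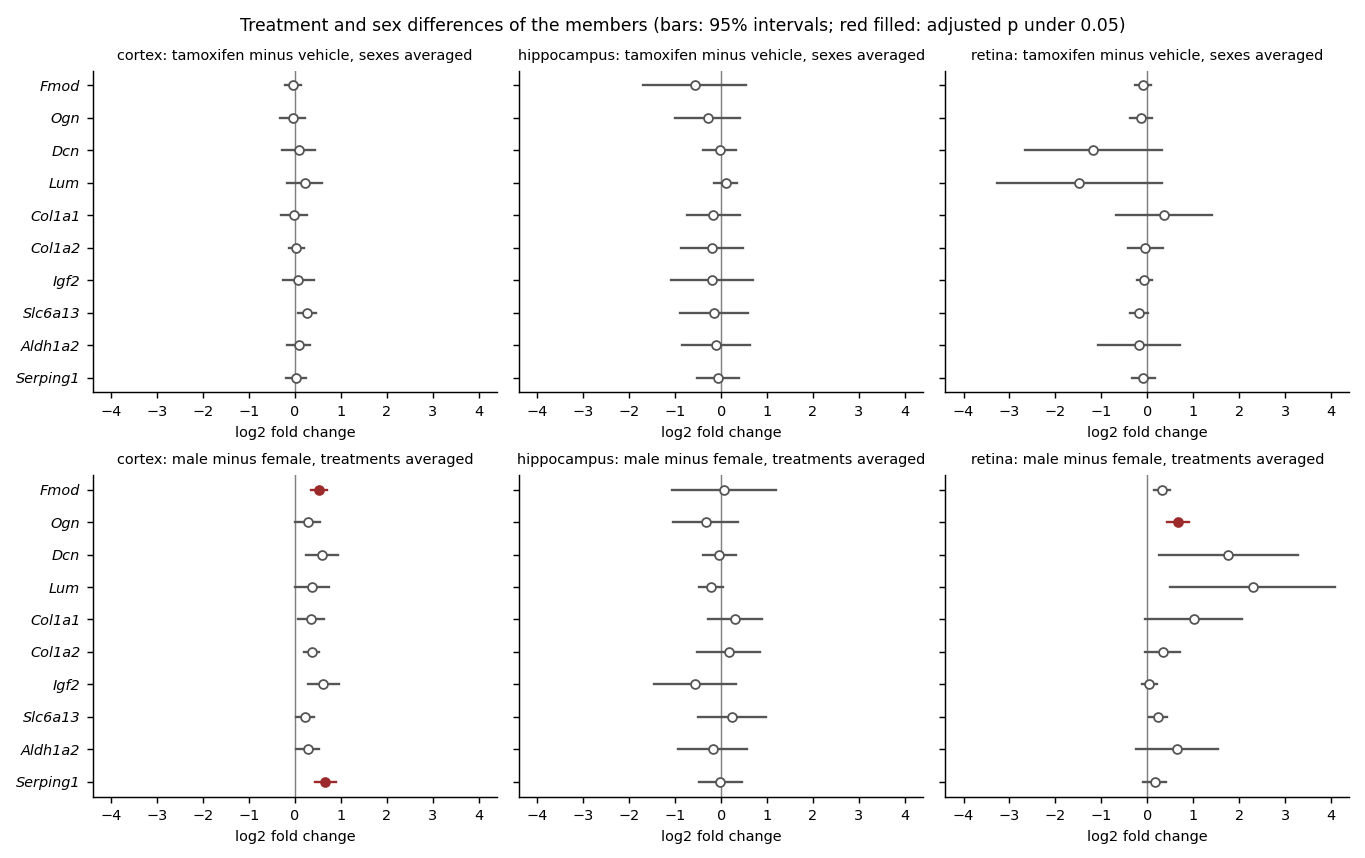
Log2 fold change of each member with its 95% interval in the 3 tissues, for tamoxifen minus vehicle with the sexes averaged and for male minus female; red filled points passed an adjusted p of 0.05. No tamoxifen difference passed, and Fmod and Serping1 in the cortex and Ogn in the retina were higher in males.

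Males had more Fmod and Serping1 in the cortex than females. Of 10 members 2 were called, where edgeR called 0.0817% of all genes. Serping1 measured 8.74, 7.33, 6.47 and 7.08 CPM in the tamoxifen females and 6.59, 7.28 and 7.65 CPM in the vehicle females. It measured 10.6, 13.03 and 10.8 CPM in the tamoxifen males and 9.13, 10.6, 12.7 and 13.6 CPM in the vehicle males. Every male was above every female. The log2 difference, male minus female, was 0.66 ± 0.11 (adjusted p = 0.0075).

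Fmod measured 23.5, 23.9, 22.9 and 23.3 CPM in the tamoxifen females and 28.9, 24.01 and 25.8 CPM in the vehicle females. In males it was 42.2, 33.5 and 33.6 CPM with tamoxifen and 26.4, 33.6, 39.4 and 37.95 CPM with vehicle. All males but 963 lay above the highest female. The difference was 0.51 ± 0.08 (edgeR adjusted p = 0.00778). Without animal 957 it missed the threshold (adjusted p = 0.0505), and without the 3 libraries rich in Ttr both genes did (0.50 ± 0.09, adjusted p = 0.0519 for Fmod and 0.61 ± 0.13, adjusted p = 0.131 for Serping1). The sizes of the differences were close to those over all libraries.

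The other 8 members were also positive in the cortex, where 52.2% of all genes were, and the median over the 10 was 0.36 against 0.00 over all genes. Genes of a list that vary together across libraries are not separate observations, here and below. Igf2 was at 0.62 ± 0.16 (edgeR adjusted p = 0.315), Dcn at 0.59 ± 0.17 (adjusted p = 0.382) and Col1a2 at 0.36 ± 0.08 (adjusted p = 0.128, but 0.0219 without animal 963 and 0.0132 with DESeq2, which called 3 members). Slc6a13 was the smallest at 0.23 ± 0.09. Of 30 other meningeal and fibroblast markers tested 26 were positive with a median of 0.25, and 0 were called. Choroid plexus genes were positive for 16 of 16 (median 1.11), red blood cell genes for 4 of 4 (median 0.67) and rod photoreceptor genes for 0 of 12 (median -0.90), with 0 called in each list. With the choroid plexus score as a covariate, a setting chosen after the data were seen, Fmod was at 0.52 ± 0.08 (edgeR adjusted p = 0.00508) and Serping1 at 0.63 ± 0.10 (adjusted p = 0.00634), and the part of the red blood cell and rod genes was not tested.

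In the retina Ogn was higher in males. It measured 11, 11.4, 9.77 and 9.14 CPM in the tamoxifen females, 11.04, 11.4 and 11.7 CPM in the vehicle females, 11.51, 18.4, 16.6 and 19.5 CPM in the tamoxifen males and 16.4, 17.6, 16.6 and 22.2 CPM in the vehicle males. All males but 959 lay above the highest female. The difference was 0.67 ± 0.11 (edgeR adjusted p = 0.0167), and it was the 1 member called, where 0.149% of all genes were called. Pigment cell genes moved with sex as well: 12 of 12 tested were positive with a median of 1.22, none called, and their sum spanned 78.0 to 805.0 CPM among females, against 137.3 to 1304 CPM among males. With the pigment score as a covariate the difference of Ogn was 0.37 ± 0.12 (adjusted p = 0.648), and without the 5 pigment-rich libraries it was 0.50 ± 0.12 (adjusted p = 0.493). It also missed the threshold without animal 954 (adjusted p = 0.0559) or 957 (adjusted p = 0.0609).

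Among the other members in the retina, Lum was at 2.29 ± 0.85 (edgeR adjusted p = 0.279), Dcn at 1.76 ± 0.72 (adjusted p = 0.314), Col1a1 at 1.01 ± 0.50 and Fmod at 0.31 ± 0.08 (adjusted p = 0.175, and 0.0467 without animal 959). Igf2 was at 0.04 ± 0.08. All 10 were positive, where 50.4% of all genes were, with a median of 0.49 against 0.00 over all genes. Several members share their high libraries here, so they are not separate observations. In the hippocampus edgeR called 0 of 10 members and 17.7% of all genes, with 0 members at an unadjusted p under 0.05 and 0 called by DESeq2. The member differences there ran from -0.57 ± 0.42 (Igf2) to 0.30 ± 0.28 (Col1a1), with a median of -0.03. Whether the sex difference itself differed between tissues was not tested.

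The pathways around the members gave no call with tamoxifen either. The 8 lists compared held the other small leucine-rich proteoglycans, other fibroblast collagens, collagen folding and cross-linking enzymes, other meningeal markers, the insulin-like growth factor axis, retinoic acid genes, GABA and taurine transporters and complement genes. Of their 131 genes 115, 122 and 117 were tested in cortex, hippocampus and retina, and edgeR called 0 in each with the sexes averaged. At an unadjusted p under 0.05 there were 13, 8 and 13, counts not set against the share of all genes at that cutoff. The other fibroblast collagens were positive for 12 of 13 in the cortex (median 0.21), where 52.7% of all genes were positive. Bgn and Prelp, the most abundant of the other proteoglycans there, were at 0.05 ± 0.10 and -0.06 ± 0.11. Of the enzymes that share the role of Aldh1a2, Aldh1a1 was at -0.00 ± 0.07 in the cortex.

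Between the sexes 10 list genes were higher in males and 6 lower in the hippocampus. These 16 of 122 tested are a smaller share than the 17.7% of all genes called there. The complement genes C1qa, C1qb and C1qc, which encode the chains of the C1q recognition protein whose proteases Serping1 inhibits, and C4b were among the higher. So were Col16a1, a collagen that links fibrils to the surrounding matrix, Bmp1, which trims procollagen, and Plod1, which hydroxylates collagen lysines. Slc32a1, the vesicular GABA transporter, the creatine transporter Slc6a8 and Igfbp4 completed this set. The 6 lower genes were the proteoglycans Chad and Ecm2, the receptor Igf1r and the binding protein Igfbp3 of the growth factor axis, the mesenchymal factor Twist1 and Aldh1a1. The differences, male minus female, included 0.46 ± 0.07 for C1qc (edgeR adjusted p = 0.00204) and 0.52 ± 0.12 for Col16a1 (adjusted p = 0.0101) against -1.18 ± 0.34 for Chad (adjusted p = 0.0295). In the cortex and the retina edgeR called 0 list genes (0.0817% and 0.149% of all genes). At an unadjusted p under 0.05 there were 26 and 35, again not set against the share of all genes.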

How the data were processed

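RNA of 15 animals was sequenced after joint DNA and RNA extraction and TruSeq library preparation, per the labels' protocols. The authors deposited expected counts (estimated counts with fractional parts, marked raw) for 36172 genes per tissue. Gene models came from RefSeq, per the file headers, while GRCm38, mm10 and DESeq are named in the submitters' processing notes. Neither the aligner and counting program nor any use of strand is given in the sources used here, so overlapping and antisense genes can share reads. Columns were matched to animals by the number in the titles, which pairs the tissues of an animal because they come from it. For animal 965 no hippocampus library was used here.

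Expected counts were rounded to whole numbers. Each tissue was filtered with filterByExpr, scaled by TMM and fitted with edgeR 4.0.16 in R 4.3.3 (quasi-likelihood, 4 group means), and all tissues jointly with 12 group means. P-values were adjusted by Benjamini-Hochberg over all genes tested, 14680 in the cortex, 15339 in the hippocampus, 14781 in the retina and 15900 jointly, with a threshold of 0.05. Alternatives were DESeq2 1.42.0, RLE scaling, no filter, an additive model, score covariates, libraries left out and the animal as a block. CPM values use TMM-adjusted totals over all 43 libraries. Lengths are those of the longest annotated transcript paired with a curated RefSeq transcript. Log2 CPM for correlations had a prior count of 2. The floor of a count of 0 is 3 counts, and covers counting error only. The testing scripts were checked on simulated counts.

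The rule for named genes took all 10 members. From each list it took the called genes up to 6, or the 2 with the highest mean CPM, and in each tissue the 10 genes with a mean CPM of at least 1 that correlated best with the mean of the members. The members and lists were chosen with earlier results of these data known. Of the 301 list entries 299 matched a row. Reln, Plxnc1, Aldh1a1 and genes named for how they compare with a member were added after their values were seen.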

Additional observations from a re-analysis of the deposited data

Results flagged for a closer look

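In 6 of the 70 groups of 4 libraries compared, the highest or lowest library of a member stood apart from the other 3 by more than Dixon's 95% limit, and chance does so in about 1 in 20 groups. Among retina libraries of tamoxifen females, animal 953 had Fmod at 20.5 CPM against 28.8 to 29.9 in the others, and Lum at 2.19 CPM where the other 3 had no count. Among vehicle males, animal 964 had Lum at 4.62 CPM in the cortex against 3.38 to 3.43, animal 963 had Col1a1 at 6.93 CPM in the cortex against 12.2 to 12.7, and animal 966 had Aldh1a2 at 1.94 CPM in the retina against 0.816 to 0.898. Igf2 in the hippocampus of tamoxifen female 951 was at 251.1 CPM against 41.5 to 63.2, in a library whose choroid plexus genes summed to 4491 CPM.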

How the results depend on the processing

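Of 1829 values of uncalled tamoxifen effects under the alternatives, 160 changed sign and 0 became called. Of 61 values of the 3 called sex differences 7 lost the call, and of 440 values of called tissue differences 3 did; 0 reversed. Of 539 values of uncalled sex differences 3 gained a call, and of 160 of uncalled tissue differences 8 did (6 of them Col1a2 between hippocampus and retina). Members called between the sexes in the cortex numbered 2, but 0 without the libraries rich in Ttr and 1 to 3 when an animal was left out (1 without 957, 3 without 963). In the retina they numbered 1, but 0 with the pigment score as a covariate, 0 without the libraries rich in pigment cell genes, and 0 to 2 when an animal was left out (0 without 954 or 957, 2 without 959). Members lower in the cortex than in the hippocampus numbered 2, but 1 with DESeq2 and 1 to 2 when an animal was left out (1 without 955). The median r over pairs was 0.50 in the cortex (0.63 with group means kept, 0.44 to 0.58 with an animal left out), 0.76 in the hippocampus (0.96 without the libraries rich in Ttr, 0.64 to 0.93 with an animal left out) and 0.49 in the retina (0.64 with group means kept, 0.21 without the libraries rich in pigment cell genes, 0.21 to 0.56 with an animal left out). With the animal as a replicate block the numbers of members called between tissues were the same: 5 higher and 2 lower, 4 and 2, and 5 and 4. Settings that leave out pigment-rich libraries, or Ttr-rich ones outside the tamoxifen test, and the covariates for sex were chosen after seeing the data. Depth limits Aldh1a2 and Lum in the retina, with 2 to 24 counts for Aldh1a2 and 0 for Lum in 3 libraries.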

Other observations

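The member level of an animal was compared between its tissues after the mean of each group of sex and treatment was removed. The mean of the standardised members in the cortex had r of -0.17 with that in the hippocampus (Spearman's rho -0.17, r of -0.24 without 2 animals, n = 13) and 0.39 with that in the retina (rho 0.59, 0.36 without 2 animals, n = 14). Hippocampus and retina had r of -0.46 (rho -0.56, -0.41 without 2 animals, n = 14). Animal 966 was the lowest in the hippocampus for 7 members and the highest in the retina for Ogn, Aldh1a2 and Serping1.

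Genes most like Dcn in the hippocampus, listed after their values were seen, were Baiap3, Grp and Gpr101 (r = 0.93 each over 14 libraries), and Tmie and Fli1 followed at 0.92 each. Grp encodes a neuropeptide. Ptgds was among the 10 genes most like the mean of the members in both the hippocampus and the retina, and Thbd in both the cortex and the hippocampus.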
